A study of Rattus with 9 samples.

Results

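The genes described here are the cytosolic and mitochondrial heat shock chaperones Hspa8, Hsp90aa1, Hsp90ab1, Hsph1, Dnajb1, Dnaja1, Bag3, Hspb1, Hspd1 and Hspe1 in rat liver. They were taken by gene name from the deposited table, in which the 10 symbols matched 11 of 20236 rows because Hspa8 names a row on chromosome 8 and another on chromosome 5. No expression value entered the rule that took them, although earlier results of these data were known when the set was chosen. Gene expression was measured by sequencing polyadenylated RNA of Sprague-Dawley rat liver in 9 libraries, in a series on hyperlipidemia and its treatment with pomegranate. The normal control, model and pomegranate-high groups had 3 libraries each, taken 8 weeks into administration. The labels list no allele, agent or dose for any group and do not say how the model was produced or what the pomegranate preparation was. Library titles start with SG in the model group and with M in the pomegranate-high group, and the meaning of these letters is not stated, so directions rest on the group field. Separate animals are not stated for the libraries, so p-values measure the spread between libraries, which may be technical.

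Heat shock chaperones bind unfolded or partly folded proteins and help them to fold, refold or reach the degradation machinery. In the cytosol, J-domain proteins hand clients to HSP70 proteins, nucleotide exchange factors release them, and HSP90 proteins complete the maturation of kinases and nuclear receptors, while a barrel-shaped chaperonin folds imported proteins in the mitochondrial matrix. Many of these genes are targets of the heat shock factor Hsf1, and in liver some of them also follow feeding and the daily rhythm of body temperature.

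None of the chaperones passed the test in any of the 3 comparisons between groups. The gene with the smallest unadjusted p was Hsph1, which stood at 39.2 ± 8.71 FPKM (SD, n = 3) in controls, 19.8 ± 2.35 in the model group and 20.9 ± 6.00 in the pomegranate-high group. FPKM scales the fragments on a gene to its length and to the total of the library. All 10 tested rows had their lowest value in 1 of 2 libraries, model replicate 1 or pomegranate-high replicate 2, which also had the highest shares of mitochondrially encoded reads. How many of all genes were lowest in these libraries was not counted, so whether this is particular to chaperones is not known. Of the 11 rows, 10 reached 1 FPKM in at least 3 of the 9 libraries and were tested, and the row named Hsp90aa1 did not reach it.

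The libraries held 13678658 to 17966670 reads, and on a row of 1 kb the 3 reads that a count of 0 cannot exclude equal 0.167 to 0.219 FPKM. The 5 hepatocyte markers, which include albumin, summed to 40969 to 64876 FPKM, the highest sum of all cell type lists read, as the tissue label liver calls for. Mitochondrially encoded genes took 14.5% of reads in model replicate 1, 11.4% in pomegranate-high replicate 2 and 9.62% in pomegranate-high replicate 1, against 4.17% to 6.40% in the other 6 libraries. Of the markers of liver cell types, 0 passed by limma in any comparison, and their summed levels are given as ranges over the libraries of each group. The summed level of 9 Kupffer cell and macrophage markers was 373 to 676 FPKM in controls, 123 to 417 in the model group and 379 to 955 in the pomegranate-high group. For 5 markers of sinusoidal endothelium the sums were 81.6 to 90.1, 35.7 to 63.1 and 47.6 to 80.6 FPKM. For the red blood cell markers they were 1242 to 1879, 468 to 1250 and 1470 to 2880 FPKM. The stellate cell markers summed to 24.8 to 37.1, 21.7 to 46.1 and 37.7 to 98.1 FPKM, and those of lymphocytes to 3.51 to 8.11, 3.66 to 7.60 and 8.32 to 19.1 FPKM. Cholangiocyte markers summed to at most 17.8 FPKM and neutrophil markers to at most 22.5 FPKM in any library, and Krt7 and Mmp8 among them were listed at 0 in at least 1 library. The part of cell composition in the chaperone values was not tested, and in bulk tissue fewer cells of a type and less RNA per cell cannot be told apart.

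Per unit of gene length, Hsp90ab1 had the highest control mean, followed by Hspa8, Hspe1, Dnaja1, Hspd1, Hspb1, Hsph1, Dnajb1, Bag3, the chromosome 5 row of Hspa8 and Hsp90aa1. The control mean of Hsp90ab1 was 1.34 times that of Hspa8, and their control libraries overlapped in range, although Hsp90ab1 was the higher of the pair in 9 of 9 libraries. Hspa8 stood 2.00 times above Hspe1 with no overlap. Hspe1 and Dnaja1, whose control means differed by a ratio of 1.06, were in this order in 5 of 9 libraries, and Hsph1 and Dnajb1, with a ratio of 1.16, in 4 of 9. Dnaja1 lay above Hspd1 in 9 of 9 libraries at a control ratio of 1.26 with no overlap between the control ranges. The control ranges of Hspd1 and Hspb1, of Hspb1 and Hsph1, and of Dnajb1 and Bag3 overlapped, so the ranges of these neighbours did not separate. Within libraries these pairs were in this order in 8, 8 and 7 of 9. The low end did separate. Bag3 stood 6.84 times above the chromosome 5 row of Hspa8, and both were higher than Hsp90aa1 in every library.

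**Figure D1:**
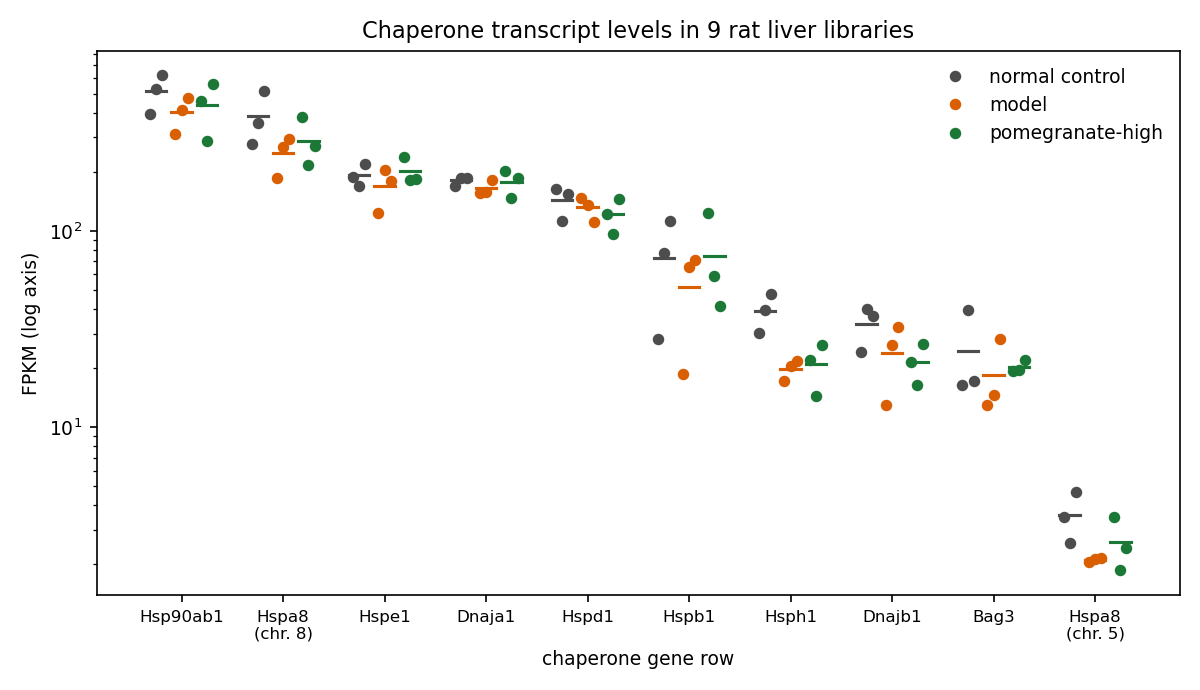
Level of each tested chaperone row in FPKM on a log axis, with 1 point per library and a short line at each group mean of 3 libraries (grey for normal control, orange for model, green for pomegranate-high). Levels run from 1.86 FPKM on the chromosome 5 row of Hspa8 to 620 FPKM for Hsp90ab1, and Hsph1 is the row above 10 FPKM on which all controls, at 30.3 to 47.7 FPKM, lie above all other libraries. Hsp90aa1, listed at 0 in 4 libraries, is not drawn.

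Hspa8 encodes the constitutive cytosolic HSP70, which folds new proteins, strips clathrin from vesicles and delivers clients to lysosomes. Its row on chromosome 8 (ENSRNOG00000034066, 44990014 to 44993179, plus strand, build Rnor_6.0) stood at 278, 354 and 518 FPKM in controls 1 to 3. It stood at 185, 269 and 293 FPKM in model libraries 1 to 3, and at 379, 217 and 271 FPKM in pomegranate-high libraries 1 to 3. The 3 groups overlapped, with model replicate 1 lowest and control replicate 3 highest. By limma the model group differed from controls by −0.60 ± 0.32 (SE) on the log2(FPKM + 1) scale, with a 95% interval of −1.31 to 0.11, or 0.402-fold to 1.08-fold. Pomegranate-high differed from the model group by 0.20 (−0.51 to 0.92) and from controls by −0.40 (−1.11 to 0.32). Single libraries moved these values. Model against control was −0.36 without control replicate 3, −0.40 without model replicate 1 and −0.39 in the fit adjusted for mitochondrial share, and pomegranate-high against control was −0.16 without control replicate 3, −0.21 without pomegranate-high replicate 2 and −0.61 without pomegranate-high replicate 1.

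The table annotated 8 rows as heat shock cognate 71, the protein that Hspa8 encodes, and several of them as pseudogenes. Chromosome 8 held 84.9% of the reads on these rows and the other 7 rows 15.1%. The sources used here do not say how reads that match several copies were counted, and the split between the rows is uncertain. The second row named Hspa8 (ENSRNOG00000032585, chromosome 5, 99031013 to 99033107, minus strand) had 3.48, 2.56 and 4.65 FPKM in controls, 2.06, 2.13 and 2.15 in model libraries and 3.47, 1.86 and 2.43 in pomegranate-high libraries. All 3 model libraries were below all 3 controls on this row, and the log2 difference of −0.53 ± 0.24 SE had a 95% interval of −1.05 to 0.00051. Over the 9 libraries this row and the chromosome 8 row had a Pearson r of 0.82. Small nucleolar RNAs named SNORD14 lie within the chromosome 8 row and were listed at 0 to 9.77 FPKM in these libraries of polyadenylated RNA. How reads were divided between them and the Hspa8 row is not stated, so their levels were not compared.

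Hsph1 encodes a large relative of HSP70 that releases nucleotide from HSP70 and takes part in dissolving protein aggregates. The row (ENSRNOG00000000902, chromosome 12, 6322668 to 6341902, minus strand) stood at 30.3, 39.6 and 47.7 FPKM in controls. It stood at 17.2, 20.5 and 21.7 FPKM in the model group, and at 22.0, 14.5 and 26.3 FPKM in the pomegranate-high group. Every control was above every library of both other groups, and those 2 groups overlapped each other. The log2 difference between model and control was −0.93 ± 0.27 SE (95% interval −1.53 to −0.33, unadjusted p = 0.00591 by limma). It did not pass adjustment over 11078 genes (Benjamini-Hochberg adjusted p = 0.999, range over 16 alternatives 0.784 to 1). Between pomegranate-high and control the difference was −0.89 ± 0.27 SE, with an interval of −1.49 to −0.29. Its unadjusted p was 0.00777 by limma, and the limma adjusted p = 0.382 ranged from 0.0822 to 0.910 over the alternatives. These comparisons share the control libraries. Without the 3 libraries with the highest mitochondrial share the pomegranate-high difference was −0.53 with an unadjusted limma p of 0.107, and that group then held 1 library, assumed to vary like the others. From model to pomegranate-high the log2 difference was 0.04, with an interval of −0.55 to 0.64, or 0.681-fold to 1.56-fold.

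Bag3 encodes a nucleotide exchange factor of HSP70 that links it to small heat shock proteins and directs clients to autophagy. The row (chromosome 1, 199941161 to 199965191, plus strand) had 16.4, 39.6 and 17.1 FPKM in controls, 13.0, 14.5 and 28.1 in model libraries and 19.2, 19.5 and 21.9 in pomegranate-high libraries. Control replicate 2 stood at more than 2 times the level of the other controls, and the groups overlapped. The pomegranate-high libraries had an SD of 1.48 FPKM, against 13.2 in controls and 8.31 in the model group, and these SDs were not compared by a test. The log2 difference from control to model was −0.34 (−1.16 to 0.49), and it was 0.06 without control replicate 2. The difference between pomegranate-high and control was −0.14 with all libraries and 0.26 without that control.

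Dnaja1 and Dnajb1 encode J-domain proteins, which bring clients to HSP70 and start its cycle of nucleotide hydrolysis. Dnaja1 (chromosome 5, 57028467 to 57039378, plus strand) stood at 170, 186 and 186 FPKM in controls, 156, 158 and 182 in the model group and 203, 147 and 186 in the pomegranate-high group. The groups overlapped, and Dnaja1 had the narrowest range of the chaperones, with a highest value 1.38 times the lowest over all 9 libraries. Its 95% intervals were −0.62 to 0.35 for model against control, −0.39 to 0.59 for pomegranate-high against model and −0.52 to 0.45 for pomegranate-high against control. The gene of the microRNA Mir207 lies within the row and was at most 3.75 FPKM.

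Dnajb1 (chromosome 19, 24747178 to 24750919, plus strand), a partner of HSP70 in disaggregation that is strongly induced by heat, stood at 24.1, 40.2 and 36.8 FPKM in controls. Model libraries had 12.9, 26.1 and 32.5 FPKM and pomegranate-high libraries 21.6, 16.3 and 26.4 FPKM. The groups overlapped, with model replicate 1 the lowest. The log2 difference was −0.54 ± 0.35 SE for model against control (−1.32 to 0.23), −0.08 for pomegranate-high against model (−0.86 to 0.70) and −0.62 ± 0.35 SE for pomegranate-high against control (−1.40 to 0.16). Model against control was −0.17 without model replicate 1 and −0.09 in the fit adjusted for mitochondrial share, and pomegranate-high against control was −0.17 in that fit. The ratio of Dnaja1 to Dnajb1 in FPKM ranged from 4.63 in control replicate 2 to 12.1 in model replicate 1, so the stable and the heat-inducible J-domain gene did not keep one proportion.

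Hsp90ab1 encodes the beta form of cytosolic HSP90, made at a steady level in most tissues. The row (chromosome 9, 17817721 to 17823243, plus strand) stood at 395, 530 and 620 FPKM in controls, 314, 415 and 477 in the model group and 459, 287 and 563 in the pomegranate-high group. The groups overlapped, with pomegranate-high replicate 2 lowest. The log2 differences were −0.35 for model against control (−1.06 to 0.35), 0.09 for pomegranate-high against model (−0.62 to 0.79) and −0.27 for pomegranate-high against control (−0.97 to 0.43). Model against control was −0.19 without model replicate 1, −0.21 without control replicate 3, −0.53 without control replicate 1 and −0.02 in the fit adjusted for mitochondrial share.

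The alpha form of HSP90 is known as the more inducible one, and its named row was close to empty. Hsp90aa1 (ENSRNOG00000007219, chromosome 6, 135045363 to 135049728, minus strand) was listed at 0 in 4 libraries and had 1 or 2 reads in each of the other 5, at most 0.0645 FPKM and 8 reads in all. For a row of this length, 3 reads correspond to 0.0759 to 0.0996 FPKM, so every library lay under that limit. The row lies within the spans of Dync1h1, on the opposite strand, and RGD1305298, on the same strand. The table annotated 4 further rows as HSP90-alpha. One of them, LOC103692716 (chromosome 6, 135107271 to 135112775, minus strand), held 84.0% of the reads on the 5 rows. It stood at 1.01, 1.96 and 2.18 FPKM in controls, 1.48, 1.42 and 1.70 in the model group and 2.28, 1.70 and 1.89 in the pomegranate-high group. Controls overlapped both other groups. The lowest pomegranate-high value, 1.69993 FPKM, lay just above the highest model value, 1.69978 FPKM. Thus the level of the HSP90-alpha transcript could not be read from the row that carries its symbol, and whether reads were lost between near-identical rows was not tested.

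Hspb1 encodes a small heat shock protein that holds unfolding proteins and stabilises actin filaments. The row (chromosome 12, 23839399 to 23841049, minus strand) stood at 28.2, 77.2 and 113 FPKM in controls, 18.7, 65.1 and 70.7 in the model group and 123, 58.8 and 41.4 in the pomegranate-high group. Values were spread widely inside every group, and the groups overlapped. Hspb1 had the widest range of the tested rows, with a highest value 6.59 times the lowest. The intervals were wide as a result, from 0.271-fold to 1.87-fold for model against control, 0.570-fold to 3.94-fold for pomegranate-high against model and 0.406-fold to 2.80-fold for pomegranate-high against control.

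Hspd1 encodes the subunit of the mitochondrial chaperonin barrel and Hspe1 the lid that closes it. Hspd1 (chromosome 9, 61680530 to 61690956, minus strand) stood at 164, 113 and 155 FPKM in controls, 148, 136 and 112 in the model group and 122, 97.0 and 145 in the pomegranate-high group. Hspe1 (chromosome 9, 61692154 to 61694599, plus strand) stood at 188, 169 and 219 FPKM in controls, 123, 205 and 180 in the model group and 237, 183 and 185 in the pomegranate-high group. The groups overlapped for both genes. The log2 differences of Hspd1 were −0.12 (−0.68 to 0.45), −0.13 (−0.69 to 0.44) and −0.24 (−0.81 to 0.32) for model against control, pomegranate-high against model and pomegranate-high against control. Those of Hspe1 were −0.20 (−0.78 to 0.37), 0.27 (−0.30 to 0.85) and 0.07 (−0.51 to 0.64).

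The 2 chaperonin rows lie head to head, 1197 bp apart, and are transcribed away from each other. Over the 9 libraries their log2 levels had a Pearson r of −0.04 and a Spearman rho of 0.28. Over the 6 libraries left without the 3 of highest mitochondrial share, r was 0.63. The ratio of Hspe1 to Hspd1 in FPKM was 0.833 in model replicate 1, 1.95 in pomegranate-high replicate 1 and 1.88 in pomegranate-high replicate 2, and 1.15 to 1.62 in the other 6 libraries. The 3 libraries of highest mitochondrial share thus held the lowest ratio and the 2 highest, and whether this share has a part in the ratio was not tested. A processed pseudogene of Hspe1 on chromosome 10, Rn50_10_0698.6, took 10.3% of the reads on the 2 rows, with an r of 0.92 with Hspe1, and reads may be shared between them.

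For the comparison of model with control, 0 of the 10 tested rows had a limma adjusted p under 0.05, where 1 of 11078 genes, 0.00903%, did. At an unadjusted p under 0.05, 1 of 10 rows, Hsph1, differed, against a background of 2.98% of genes. All model libraries were below all controls for 2 rows, Hsph1 and the chromosome 5 row of Hspa8, where 4.82% of genes were lower without overlap, and 0 rows were higher without overlap, where 3.97% of genes were. All 10 rows had a lower mean log2 level in the model group, with a median difference of −0.42, while 54.1% of all tested genes were lower, with a median of −0.03. Without model replicate 1, 8 of 10 rows were lower and their median was −0.18, while the other fits that left out 1 library gave medians of −0.60 to −0.28. In the fit adjusted for mitochondrial share, all 10 were lower, and the median was −0.09.

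For pomegranate-high against model, 0 of 10 rows passed by limma, where 0.00903% of genes did, and 0 of 10 had an unadjusted p under 0.05, where 8.69% of genes did. No row separated the groups in either direction, where 8.78% of genes were higher without overlap and 2.05% lower. There were 8 higher and 2 lower rows, with a median log2 difference of 0.14 against 0.09 for all genes, of which 39.0% were lower. This split moved to 5 higher and 5 lower under median-of-ratios scaling (median 0.01), and to 4 higher and 6 lower without model replicate 1 (median −0.01). Without pomegranate-high replicate 2 all 10 rows were higher, with a median of 0.30, and without pomegranate-high replicate 1 the median was 0.0068, with 6 higher and 4 lower.

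For pomegranate-high against control, 0 of 10 rows passed by limma, where 0.0181% of genes did, and 1 of 10, Hsph1, had an unadjusted p under 0.05, where 10.2% of genes did. Hsph1 alone was lower without overlap, where 3.66% of genes were, and 0 rows were higher without overlap, where 12.4% of genes were. There were 8 lower and 2 higher rows, with a median of −0.26 against 0.07 for all genes, of which 42.6% were lower. Under median-of-ratios scaling, which moved the median of all genes in this comparison from 0.07 to −0.02, all 10 rows were lower with a median of −0.36. In the fit adjusted for mitochondrial share, 5 of 10 were lower, with a median of −0.06. Without pomegranate-high replicate 2 it was 6 of 10, with a median of −0.11. Without the 3 libraries of highest mitochondrial share, which left replicate 3 alone in pomegranate-high, it was 7 of 10, with a median of −0.18. Without control replicate 3 the median was −0.17, and without control replicate 1 it was −0.40. With limma's voom on recovered reads, 0 of 10 rows passed in each of the 3 comparisons. Its unadjusted p was under 0.05 for 1 row, 0 rows and 1 row.

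**Figure D2:**
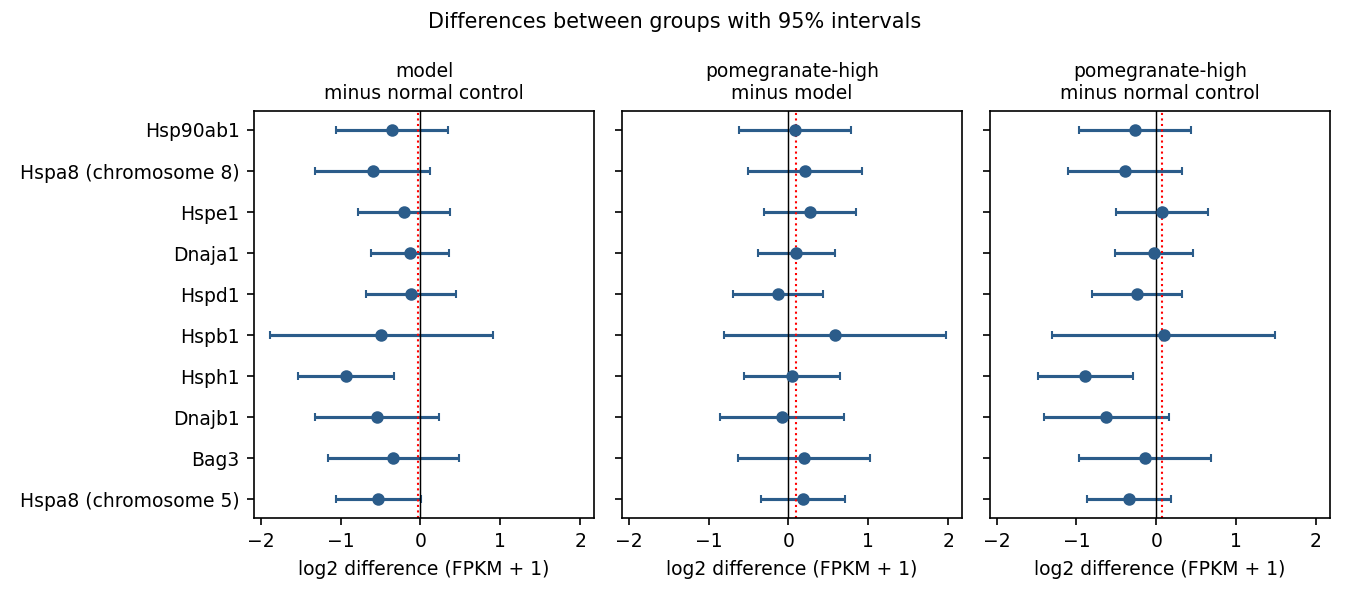
Log2 difference in FPKM + 1 of each tested chaperone row in the 3 comparisons, with points for the limma estimate over 3 libraries per group, bars for the 95% interval and a dotted red line at the median of all tested genes. The intervals of Hsph1 exclude 0 against controls (−1.53 to −0.33 and −1.49 to −0.29), and those of every other row include it.

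The lowest of the 9 values fell in model replicate 1 for 5 rows and in pomegranate-high replicate 2 for the other 5. Model replicate 1 held the minimum of Hspa8 on chromosome 8, Dnajb1, Bag3, Hspb1 and Hspe1, and 9 of its 10 rows were below every control. Pomegranate-high replicate 2 held the minimum of the chromosome 5 row of Hspa8, Hsp90ab1, Hsph1, Dnaja1 and Hspd1, and 7 of its rows were below every control. The share of all tested genes that were lowest or below every control in these libraries was not counted. Whether these counts are particular to chaperones is therefore not known. The mean deviation from the control mean over the 10 rows was −0.79 in model replicate 1 and −0.57 in pomegranate-high replicate 2 on the log2 scale. The other model libraries had −0.32 and −0.17, the other pomegranate-high libraries −0.05 and −0.21, and the controls −0.30, 0.06 and 0.24. The median gene deviated by −0.18 in model replicate 1 and by 0.08 in pomegranate-high replicate 2. Pomegranate-high replicate 1 had a mitochondrial share of 9.62% and the highest value of 3 rows (Hspb1, Dnaja1 and Hspe1). The part of the mitochondrial share in these values was not tested apart from the adjusted fit above.

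**Figure D3:**
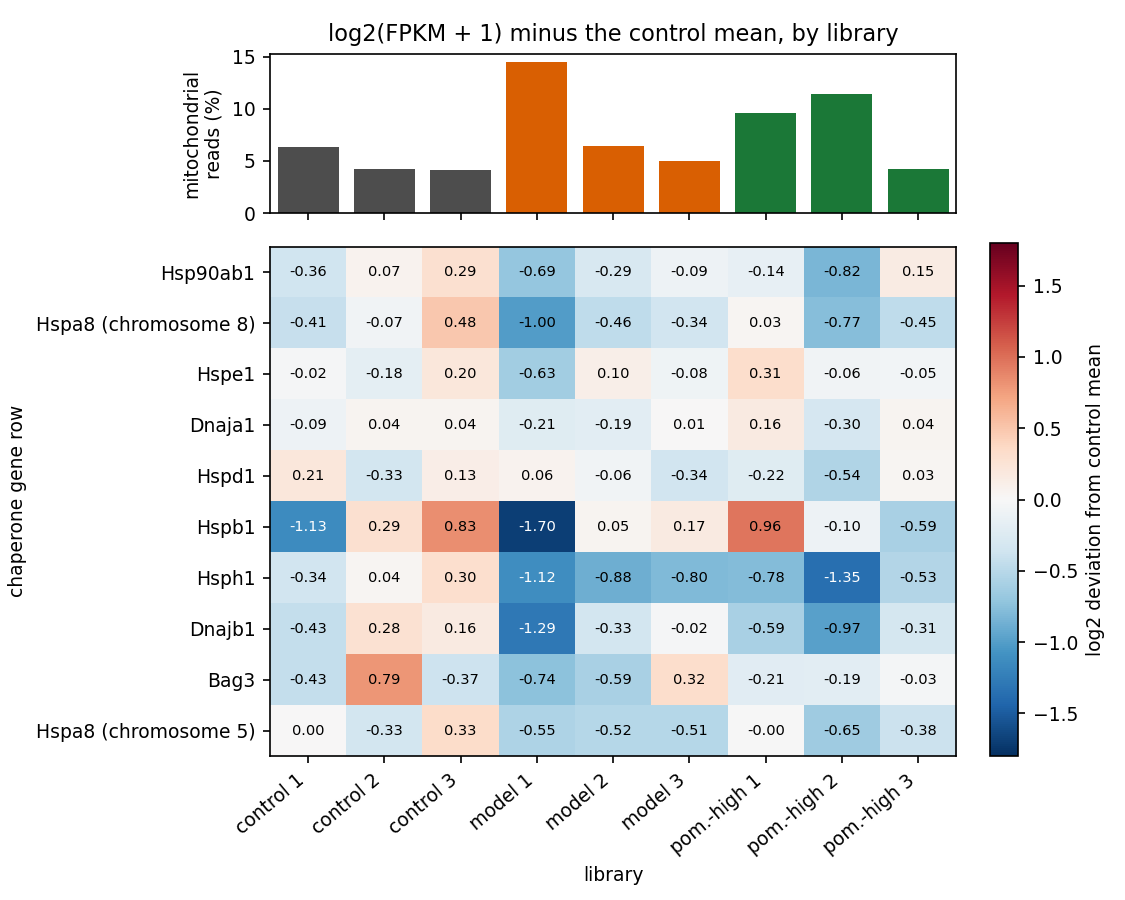
Upper panel, share of reads on mitochondrially encoded genes in percent for each of the 9 libraries. Lower panel, log2(FPKM + 1) of each tested chaperone row minus the control mean, printed in each cell and coloured from blue (lower) to red (higher). Model replicate 1 (14.5%) and pomegranate-high replicate 2 (11.4%) are the libraries with the most blue cells, with mean deviations of −0.79 and −0.57, while Hsph1 is blue in all libraries of both groups.

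Among the 7 cytosolic rows that remain when the chromosome 5 row is set aside, the 21 pairs had a median Pearson r of 0.62 over the 9 libraries, with a range of 0.32 to 0.86. The same rows had a median r of 0.06 with the 11068 tested genes outside the set, with quartiles of −0.36 and 0.42. Without the 3 libraries of highest mitochondrial share the median of the 21 pairs was 0.64 over 6 libraries, with a range of 0.06 to 0.86. The highest pair was Hsp90ab1 with Dnajb1 at 0.86, and Bag3 with Hspa8 was the lowest at 0.32. The 14 pairs of a cytosolic with a mitochondrial row had a median of 0.30, which was −0.11 over the 6 libraries. Hspd1 had negative values with Bag3 (−0.56) and Hspb1 (−0.40), while Hspe1 had positive ones with Hspb1 (0.79) and Hspa8 (0.72). These values are descriptions, since all rows share the same libraries, depth and scaling.

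**Figure D4:**
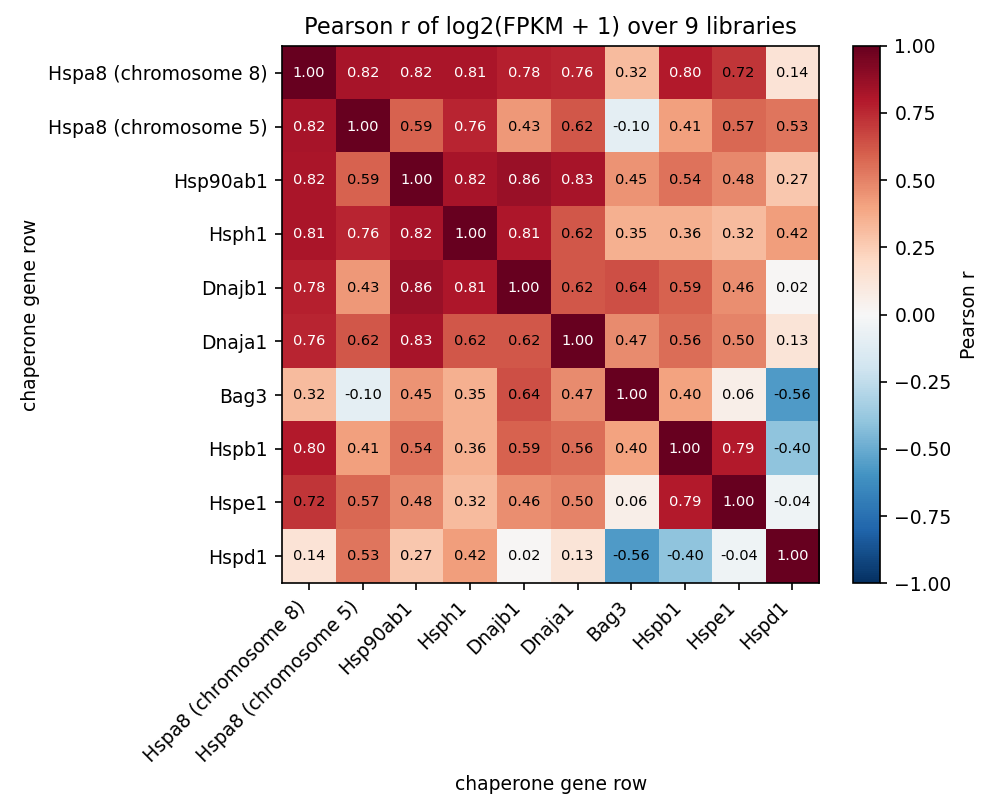
Pearson r of log2(FPKM + 1) over the 9 libraries for each pair of tested chaperone rows, coloured from blue (−1) to red (1). The block of Hspa8, Hsp90ab1, Hsph1, Dnajb1 and Dnaja1 is red throughout, while Hspd1 is pale or blue in most cells, with −0.56 for Bag3 and −0.04 for Hspe1.

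Outside the set, the genes most like it by mean Pearson r with the 10 tested rows over the 9 libraries were Nprl3 (0.71), Cct3 (0.70), Glb1 (0.70), Cct5 (0.70), Pih1d1 (0.69), Ilvbl (0.69), Thop1 (0.69) and Cdc42ep4 (0.68). Cct3 and Cct5 encode subunits of the cytosolic chaperonin TRiC, which folds actin and tubulin, and Pih1d1 encodes a subunit of an HSP90 co-chaperone complex. Cct3 ranged from 19.0 to 39.4 FPKM, Cct5 from 52.1 to 89.0 FPKM and Pih1d1 from 3.59 to 10.2 FPKM.

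The regulators and partners of these chaperones were read from lists, in which 0 members passed by limma in any comparison with all 9 libraries in the fit. Hsf1, the main activator of heat shock genes, stood at 7.39 to 11.5 FPKM over the 9 libraries, with group means of 9.67 in controls, 9.66 in the model group and 9.46 in the pomegranate-high group. For pomegranate-high against control its interval was −0.55 to 0.48 on the log2 scale. Among the 8 heat shock factors and regulators, Hsbp1, a small protein that binds Hsf1, stood at 60.7 ± 6.93 FPKM in controls and 92.4 ± 19.1 in pomegranate-high (log2 difference 0.58 ± 0.25 SE, limma adjusted p = 0.466). Hsf2 stood at 5.31 to 11.4 FPKM and Hspbp1, an exchange factor of HSP70, at 7.01 to 31.0 FPKM, with its lowest value in model replicate 1.

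The inducible HSP70 genes were low. Hspa1a had 0 to 5 reads in a library, at most 0.143 FPKM, and was not tested. Hspa1b stood at 0.856, 6.64 and 7.43 FPKM in controls, 0.208, 0.572 and 2.34 in the model group and 4.70, 1.56 and 0.10 in the pomegranate-high group. These values overlapped between groups and spanned a wide range inside each, and the 2 near-identical genes may share reads. The other HSP70 relatives Hspa13 and Hspa14 stood at 4.70 to 11.7 and 3.98 to 8.29 FPKM.

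Of the further J-domain genes, 6 of 10 tested were higher and 4 lower in model than in control, and 4 were higher and 6 lower in pomegranate-high than in control. In these comparisons 54.1% and 42.6% of all tested genes were lower. Dnajb5 stood at 8.27 ± 1.41 FPKM in controls and 5.48 ± 0.623 in pomegranate-high (−0.51 ± 0.22 SE, limma adjusted p = 0.473). Dnaja4 stood at 5.64 to 10.9 FPKM, and all of its model libraries were below all controls. Dnajc5, which acts on synaptic and secretory vesicles, stood at 3.62 to 16.7 FPKM.

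Of the 17 tested HSP90 co-chaperone genes, 11 were lower in model than in control, with a median log2 difference of −0.21. Over all tested genes the median was −0.03 and 54.1% were lower. In pomegranate-high against control 11 were lower and 6 higher, with a median of −0.11, where all tested genes had a median of 0.07 and 42.6% were lower. Ptges3, the p23 co-chaperone that stabilises HSP90 bound to clients, stood at 65.5 ± 8.83 FPKM in controls and 91.2 ± 2.43 in pomegranate-high (0.48 ± 0.21 SE, limma adjusted p = 0.483). Stub1, a ubiquitin ligase that acts on chaperone clients, ranged from 10.2 to 22.7 FPKM, and Ahsa2, a relative of the HSP90 ATPase activator, from 13.5 to 23.9 FPKM. Of the other BAG genes, Bag1 stood at 27.0 ± 2.64 FPKM in controls and 39.3 ± 2.09 in pomegranate-high, with no overlap (0.53 ± 0.20 SE, limma adjusted p = 0.433). Bag1 was the 1 higher gene of the 4 tested on this list in that comparison, and the other 3 were lower, with a list median of −0.16. Bag2 ranged from 0.640 to 2.59 FPKM and Bag6 from 14.7 to 35.5 FPKM.

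Among the other small heat shock genes, Cryab, which encodes alpha-B crystallin, stood at 0.743, 1.78 and 2.01 FPKM in controls. It stood at 2.11, 9.79 and 3.66 FPKM in the model group and at 7.44, 4.78 and 13.6 FPKM in the pomegranate-high group. All pomegranate-high libraries were above all controls, and the log2 difference was 1.87 ± 0.47 SE (0.83 to 2.91), which did not pass adjustment (limma adjusted p = 0.298). Hspb11 stood at 2.66 ± 0.263 FPKM in controls and 4.33 ± 1.03 in pomegranate-high (0.53 ± 0.21 SE, limma adjusted p = 0.442). Hspb8, a partner of Bag3, ranged from 34.1 FPKM in model replicate 1 to 81.2 FPKM in control replicate 3.

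For the cytosolic chaperonin TRiC and prefoldin, which passes clients to it, 10 of 14 genes were lower in model than in control and 13 of 14 were higher in pomegranate-high than in model. The medians of these log2 differences were −0.19 and 0.25, against −0.03 and 0.09 for all tested genes, of which 54.1% and 39.0% were lower. Pfdn4 stood at 3.94 ± 0.594 FPKM in controls and 10.01 ± 3.23 in pomegranate-high (1.12 ± 0.35 SE, limma adjusted p = 0.390). Pfdn5 ranged from 40.5 to 84.9 FPKM and Tcp1, a TRiC subunit, from 24.02 to 49.8 FPKM.

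Of 14 tested mitochondrial chaperone and protease genes, 12 were lower in model than in control, with a median of −0.18. All tested genes had a median of −0.03, and 54.1% of them were lower. Clpx, the unfoldase of a matrix protease, stood at 71.3, 80.4 and 67.6 FPKM in controls, 51.4, 38.7 and 48.3 in the model group and 80.3, 73.1 and 112 in the pomegranate-high group. The model libraries lay below all others. From model to pomegranate-high the log2 difference was 0.91 ± 0.24 SE (0.39 to 1.44, limma adjusted p = 0.478). Hspa9, the matrix HSP70, stood at 59.3 ± 9.24 FPKM in controls and 35.5 ± 23.5 in pomegranate-high (−0.91 ± 0.40 SE, limma adjusted p = 0.482). Its pomegranate-high libraries stood at 16.9, 27.5 and 61.9 FPKM. Without the 3 libraries of highest mitochondrial share, which left replicate 3 alone in pomegranate-high, the difference was 0.07. Without pomegranate-high replicate 3 it was −1.40 and passed (limma adjusted p = 0.0439). Lonp1, a matrix protease, ranged from 28.3 to 68.1 FPKM.

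In the endoplasmic reticulum, 13 of 14 chaperone genes had a higher mean log2 level in pomegranate-high than in control, with a median of 0.38. All tested genes had a median of 0.07 in this comparison, and 42.6% of them were lower. Hspa5, the HSP70 of this compartment, stood at 209 ± 20.5 FPKM in controls, 229 ± 38.6 in the model group and 240 ± 50.6 in pomegranate-high, and the groups overlapped. Pdia3, a disulfide isomerase, stood at 188 ± 42.7 FPKM in controls and 297 ± 67.6 in pomegranate-high (0.66 ± 0.27 SE, limma adjusted p = 0.462). Calr, which retains immature glycoproteins, ranged from 363 to 762 FPKM and Manf from 80.7 to 250 FPKM. Whether the difference between compartments exceeds the spread of libraries was not tested.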

How the data were processed

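The members and the gene lists read beside them were chosen with earlier results of these data known. Per the labels' protocols, oligo(dT) beads selected the messenger RNA, random primers copied it, and the second strand was marked. The authors deposited 1 table of FPKM values with 1 column per library, and 0 value columns had no sample. The submitters' processing notes list HTSeq 0.6.0, Bowtie2 2.2.3, DESeq, DESeq2, TopHat2 and HISAT2 with the build Rnor_6.0, without roles. The sources used here do not state how multi-mapped reads were counted or whether strand was used, so rows that overlap or have near-identical copies may share reads.

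FPKM values were whole multiples of 1 read. With a library total and a gene length read from these steps, 100% of 146433 values above 0 came out whole within 0.001 reads, and the recovered reads came to at least 99.987% of the depth implied. Any 2 libraries differed in at least 84.7% of values, so none was a copy. The floor of 3 reads covers counting error only.

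The 11078 genes that reached 1 FPKM in 3 or more of the 9 libraries were fitted with limma 3.58.1 in R 4.3.3, with an intensity trend, on log2(FPKM + 1). Adding the pseudocount of 1 makes fold changes of low genes too small. The fit held all 9 libraries in 3 groups, with 6 residual degrees of freedom. Two-sided p-values were adjusted over all genes within each comparison by Benjamini-Hochberg, and the threshold was 0.05. The script was tested on simulated data. Replicates were numbered in sample order and pair nothing.

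Named genes were the 10 members, all members of each related list past the threshold or else its 3 genes of smallest p, 6 genes named in any case (Cirbp, Rbm3, Hspa1a, Hspa1b, Hsf1 and Hspa5), and the 8 genes of highest mean r with the members. LOC103692716, Rn50_10_0698.6, SNORD14 and Mir207 were named after their values were seen. Alternatives were a pseudocount of 0.1, no filter, median-of-ratios scaling, the 2 groups alone, the mitochondrial share as a covariate, the 3 libraries of highest mitochondrial share left out and each library left out. limma's voom on recovered reads was chosen after seeing the data.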

Additional observations from a re-analysis of the deposited data

How the results depend on the processing

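With 3 libraries a group and 6 residual degrees of freedom, even the narrowest 95% interval among the chaperones, that of Dnaja1 for model against control, ran from −0.62 to 0.35 on the log2 scale. Smaller changes were not detectable, and larger ones could also fail, since the interval is not adjusted for the number of genes. Hsph1 did not pass at −0.93 in model against control, nor did Cryab at 1.87 in pomegranate-high against control. In every one of the 16 alternatives and all 3 comparisons, 0 chaperone rows passed. Of 720 differences of single genes followed through the alternatives, 675 kept their direction and their side of the threshold, 42 turned their sign and 3 passed in the alternative alone. Part of the 675 could not turn their sign. No filter, the 2 groups alone and leaving out a library outside the comparison all leave the estimate as it is. The mitochondrial covariate hardly moved pomegranate-high against model, with Hspa8 at 0.20272 against 0.20273. The cause of the changes in sign or in side of the threshold was not tested.

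The count over all genes for model against control (1 with all libraries) was 0 with a pseudocount of 0.1, no filter, the mitochondrial covariate and voom, and 2 without the 3 libraries of highest mitochondrial share. For pomegranate-high against model (1) it was 0 with no filter, median-of-ratios scaling, the 2 groups alone, the covariate, those 3 libraries left out and voom. For pomegranate-high against control (2) it was 0 with a pseudocount of 0.1, no filter, the 2 groups alone, the covariate and those 3 libraries left out, and 1 with median-of-ratios scaling and voom. Leaving out 1 library gave 0 to 1, 0 to 77 and 0 to 328 genes in these comparisons, with 77 and 328 reached without pomegranate-high replicate 3. The median of the chaperones for model against control moved from −0.42 to −0.094 with the covariate.

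Under median-of-ratios scaling the sign turned for Hsp90ab1 (−0.056), Hsph1 (−0.090) and Dnaja1 (−0.040) in pomegranate-high against model, and for Hspb1 (−0.011) and Hspe1 (−0.037) in pomegranate-high against control. With the covariate it turned for Hsp90ab1 (0.070), Dnaja1 (0.058) and Bag3 (0.14) in pomegranate-high against control. Without the 3 libraries it turned for Hspb1 (0.11) and Hspe1 (0.0092) in model against control, the same estimates as without model replicate 1 alone. It turned for Hspa8 (−0.052), Hspb1 (−0.70), Hspd1 (0.24) and Hspe1 (−0.055) in pomegranate-high against model. In pomegranate-high against control it then turned for Hsp90ab1 (0.15), Dnaja1 (0.044), Hspb1 (−0.59), Hspd1 (0.035), Hspe1 (−0.045) and Hspa9 (0.074). The pomegranate-high side of these values is 1 library, replicate 3.

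Leaving out 1 library, model against control ranged from −0.67 to 0.059 for Bag3, −1.06 to 0.11 for Hspb1 and −0.36 to 0.0092 for Hspe1. In pomegranate-high against model the ranges were −0.011 to 0.39 for Hspa8, −0.13 to 0.36 for Hsp90ab1, −0.13 to 0.28 for Hsph1 and −0.45 to 0.18 for Dnajb1. They were −0.0045 to 0.52 for Bag3, −0.018 to 0.92 for Hspb1 and −0.27 to 0.023 for Hspd1. In pomegranate-high against control they were −0.48 to 0.0046 for Hsp90ab1, −0.13 to 0.10 for Dnaja1, −0.36 to 0.26 for Bag3, −0.47 to 0.51 for Hspb1 and −0.054 to 0.17 for Hspe1. Over all 16 alternatives, where no sign turned, model against control ranged from −0.81 to −0.36 for Hspa8, −0.53 to −0.015 for Hsp90ab1, −0.81 to −0.095 for Dnajb1, −0.20 to −0.042 for Dnaja1 and −0.28 to −0.0011 for Hspd1. In pomegranate-high against control it was −0.61 to −0.16 for Hspa8 and −0.84 to −0.17 for Dnajb1. No paired analysis was possible because the labels carry no replicate numbers that pair libraries across groups.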

Other observations

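Genes that follow body temperature, handling or time of day were read beside the chaperones, and 0 of them passed by limma in any comparison with all 9 libraries in the fit. Rbm3, an RNA-binding protein gene induced by mild cold, stood at 13.8, 8.38 and 13.0 FPKM in controls, 17.9, 23.1 and 13.04 in the model group and 20.1, 37.7 and 15.8 in the pomegranate-high group. Its log2 difference between pomegranate-high and control was 0.94 ± 0.34 SE (limma adjusted p = 0.429), and all pomegranate-high libraries were above all controls. The second cold-inducible gene, Cirbp, ranged from 12.0 to 22.8 FPKM, with overlapping groups.

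Per3, a clock repressor gene, stood at 3.12, 1.95 and 1.82 FPKM in controls, 4.96, 5.09 and 3.72 in the model group and 1.01, 1.22 and 0.817 in the pomegranate-high group (pomegranate-high against model −1.47 ± 0.22 SE, limma adjusted p = 0.158). Arntl, an activator of the clock, stood at 2.60 ± 0.832 FPKM in the model group and 8.44 ± 3.86 in pomegranate-high (1.34 ± 0.32 SE, limma adjusted p = 0.478). Dbp, a clock output gene, stood at 12.9, 9.51 and 14.2 FPKM in controls and 21.3, 87.6 and 79.6 in the model group (2.05 ± 0.49 SE, limma adjusted p = 0.999). Per3 passed without pomegranate-high replicate 3 (−1.40, limma adjusted p = 0.0463), and Dbp without the 3 libraries of highest mitochondrial share (2.70, limma adjusted p = 0.0182). Of the 12 tested clock genes, 9 were lower and 2 higher in pomegranate-high than in model at an unadjusted limma p under 0.05. At that limit 8.69% of all genes differed. In model against control 4 were higher and 1 lower, where 2.98% of genes differed. In pomegranate-high against control 0 were higher and 2 lower, where 10.2% of genes differed. The labels give no time of day for the samples, and its part in the chaperone values was not tested.

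Among immediate early genes, Dusp1, a phosphatase of stress kinases, stood at 129, 251 and 564 FPKM in the model group and 163, 52.9 and 124 in pomegranate-high (−1.35 ± 0.55 SE, limma adjusted p = 0.530). The list of 12 tested immediate early genes held 8 higher and 4 lower in pomegranate-high than in model, with a median log2 difference of 0.18. Against control 9 were higher and 3 lower, with a median of 0.54. All tested genes had medians of 0.09 and 0.07 in these comparisons, and 39.0% and 42.6% of them were lower. Ier3 ranged from 14.5 to 49.8 FPKM and Junb from 9.80 to 221 FPKM. The mitochondrially encoded Mt-nd1 stood at 20092 FPKM in model replicate 1.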
